A study of Mus musculus with 12 samples.

Results

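Transcripts of the heat shock proteins and of their J-domain cochaperones were measured by RNA sequencing of mouse livers. The members were the genes listed by name as *Hspa*, *Hspb*, *Hspd*, *Hspe*, *Hsph* or *Dnaja*, *Dnajb*, *Dnajc* with a number, and the *Hsp90* genes, with *Hspa5* and names of pseudogenes left out. The rule used no measured value. It found 68 genes of the 23391 listed in either count table, and 67 of them stood in both tables. *Dnajb8* was listed in the chow table alone, with 1 read in 1 library. By role, there were 6 cytosolic HSP70 genes, 2 distant HSP70-like *Hspa12* genes, 3 HSP110 genes, 2 cytosolic HSP90 genes, 7 small heat shock proteins, 12 cytosolic DNAJA and DNAJB genes, 7 J-domain proteins of membranes, 10 mitochondrial and 7 endoplasmic reticulum (ER) chaperones and cochaperones, and 12 other DNAJC genes.

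The 12 livers came from male C57BL/6N mice, injected at 4 to 6 months of age, all with floxed *Elavl1* alleles (HuR flox/flox). *Elavl1* encodes HuR, an RNA-binding protein that binds messenger RNAs and alters how long they last. By the labels, the mice received either AAV8-Tbg-Cre, a virus that delivers Cre under a hepatocyte promoter (HuRHep-/-), or AAV8-Tbg-null (WT), and ate normal chow or 16 weeks of a high fat, cholesterol and fructose diet (HFCF, with 40 kcal% of fat, 20 kcal% of fructose and cholesterol at 2%). Each of the 4 groups held 3 libraries, and the study's methods describe albumin-Cre mice in place of the virus. Livers of whole tissue were sequenced, so that fewer cells of a type and less RNA per cell cannot be told apart.

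Heat shock proteins keep other proteins folded. HSP70 proteins bind exposed stretches of unfolded chains in cycles driven by ATP, J-domain proteins deliver the clients and start ATP hydrolysis, and HSP110 proteins exchange the nucleotide and so release the client. HSP90 acts later, on kinases and receptors that are nearly folded, and small heat shock proteins hold unfolding proteins without ATP. Heat shock factor 1 switches on the inducible genes under proteotoxic stress by binding repeats of the letters GAA in alternating direction, the heat shock element, while the ER members answer to the unfolded protein response. The liver makes and secretes most plasma proteins and carries large pools of ER and mitochondrial chaperones.

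Promoters of RefSeq (GRCm38.p6, 250 bases before to 50 after the start) were found for 55 of the 68 members. No window was found for *Hspa8*, *Hspa9*, *Hspa13*, *Hsp90aa1*, *Hsp90ab1*, *Hspb2*, *Dnajc2*, *Dnajc5*, *Dnajc11*, *Dnajc12*, *Dnajc18*, *Dnajc22* or *Dnajc30*, and these were not searched. The heat shock element, searched on both strands as GAA, TTC and GAA with 2 bases between them, stood in 0.603% of all 32841 promoters and in those of 4 members: *Hsph1*, *Hspd1*, *Hspe1* and *Dnajb6*. The ER stress element, CCAAT and CCACG with 9 bases between them on either strand, stood in 0.119% of all promoters and in those of 2 members, *Hsp90b1* and *Dnajc3*. The shorter pairs GAANNTTC or TTCNNGAA, which lie within the heat shock element and overlap it, were in 15.1% of all promoters and in those of 14 members, *Hspa1a*, *Hspa1b*, *Dnaja1*, *Hspb1* and *Hspb8* among them. A match describes letters and is no binding site. The windows below held a match, 1 shown per gene, with *Hspd1* standing for *Hspe1* too, and all but that of *Dnajb6* belong to genes called in a comparison that follows, with the matched letters in capitals, read 5′ to 3′ on the strand of the gene.
*Hsph1* (chr5:149636266-149636565, minus strand): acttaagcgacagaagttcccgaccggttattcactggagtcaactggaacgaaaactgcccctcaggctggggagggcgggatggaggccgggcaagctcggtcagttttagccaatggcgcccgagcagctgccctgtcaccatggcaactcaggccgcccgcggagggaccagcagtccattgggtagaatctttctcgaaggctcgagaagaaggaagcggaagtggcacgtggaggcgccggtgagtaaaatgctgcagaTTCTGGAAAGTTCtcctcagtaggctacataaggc
*Hspd1* (chr1:55087883-55088182, minus strand): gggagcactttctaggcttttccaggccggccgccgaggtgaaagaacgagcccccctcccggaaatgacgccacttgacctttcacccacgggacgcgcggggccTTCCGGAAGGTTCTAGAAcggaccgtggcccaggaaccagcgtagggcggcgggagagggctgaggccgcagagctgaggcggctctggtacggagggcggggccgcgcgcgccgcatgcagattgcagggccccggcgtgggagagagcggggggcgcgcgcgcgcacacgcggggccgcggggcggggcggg
*Dnajb6* (chr5:29735648-29735947, plus strand): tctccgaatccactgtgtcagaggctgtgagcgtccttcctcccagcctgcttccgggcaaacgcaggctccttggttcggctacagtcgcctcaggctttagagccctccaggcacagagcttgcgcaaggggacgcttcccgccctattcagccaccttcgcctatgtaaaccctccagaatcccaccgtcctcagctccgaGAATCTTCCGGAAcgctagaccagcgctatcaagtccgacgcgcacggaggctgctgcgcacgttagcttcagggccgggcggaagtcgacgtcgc
*Hsp90b1* (chr10:86705395-86705694, minus strand): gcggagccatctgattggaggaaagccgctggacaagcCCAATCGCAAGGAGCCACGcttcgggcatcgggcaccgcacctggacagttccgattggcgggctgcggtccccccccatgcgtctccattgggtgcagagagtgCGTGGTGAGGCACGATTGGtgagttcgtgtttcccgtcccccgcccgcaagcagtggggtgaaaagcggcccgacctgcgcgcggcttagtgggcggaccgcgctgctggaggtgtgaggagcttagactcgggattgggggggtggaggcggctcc
*Dnajc3* (chr14:118937682-118937981, plus strand): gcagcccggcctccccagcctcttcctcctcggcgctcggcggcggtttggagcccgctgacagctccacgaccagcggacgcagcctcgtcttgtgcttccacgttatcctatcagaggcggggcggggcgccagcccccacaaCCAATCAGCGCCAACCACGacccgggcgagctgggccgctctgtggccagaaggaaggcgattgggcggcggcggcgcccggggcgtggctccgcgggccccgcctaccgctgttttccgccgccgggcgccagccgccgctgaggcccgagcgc

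In *Hsph1* the heat shock element began at base 16 of the transcript, and in *Dnajb6* 46 bases before the start. *Hspd1* and *Hspe1*, the neighbouring genes of mitochondrial HSP60 and its HSP10 partner, run apart from a shared stretch of chromosome 1. Their windows had 285 of 300 bases in common, so that the same element was counted for each, with 2 overlapping matches. *Hsp90b1* held 2 ER stress elements, the first 212 and the second 107 bases before the start, and *Dnajc3* held 1, 105 bases before it.

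Levels between members were compared as CPM, the counts scaled to a fixed library total, per kb of exon. In chow WT livers the highest was *Hsp90ab1*, the constitutive cytosolic HSP90, at 312 ± 35.7 CPM per kb (SD, n = 3), next to *Hspa8*, the constitutive HSP70, at 308 ± 26.3. The spreads of *Hsp90ab1* and *Hspa8* overlapped. The organelle chaperones followed, with *Hspd1* at 169 ± 1.61, *Hsp90b1* (GRP94 of the ER) at 163 ± 12, *Hspe1* at 107 ± 4.72 and *Hspa9*, the mitochondrial HSP70, at 101 ± 5.66. *Hspb8* led the small heat shock proteins at 90.0 ± 2.37. High among the J-domain transcripts were *Dnaja2* at 38.3 ± 1.92, *Dnajc3* at 35.6 ± 3.06, *Dnajc22* at 33.1 ± 2.26 and *Dnaja1* at 29.3 ± 1.69. Spreads overlapped between *Dnaja2* and *Dnajc3*, between *Dnajc3* and *Dnajc22*, and between *Dnajc22* and *Dnaja1*. Those of *Hspd1* and *Hsp90b1*, and of *Hspe1* and *Hspa9*, overlapped as well. The order also depends on the exon length summed over transcripts, 8629 bases for *Dnaja1* and 2975 for *Dnaja2*. The stress-inducible HSP70 genes were low, *Hspa1b* at 2.41 ± 0.668 and *Hspa1a* at 0.133 ± 0.0756. The 67 members in both tables took between 0.528% and 0.632% of the reads of a library.

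**Figure D1:**
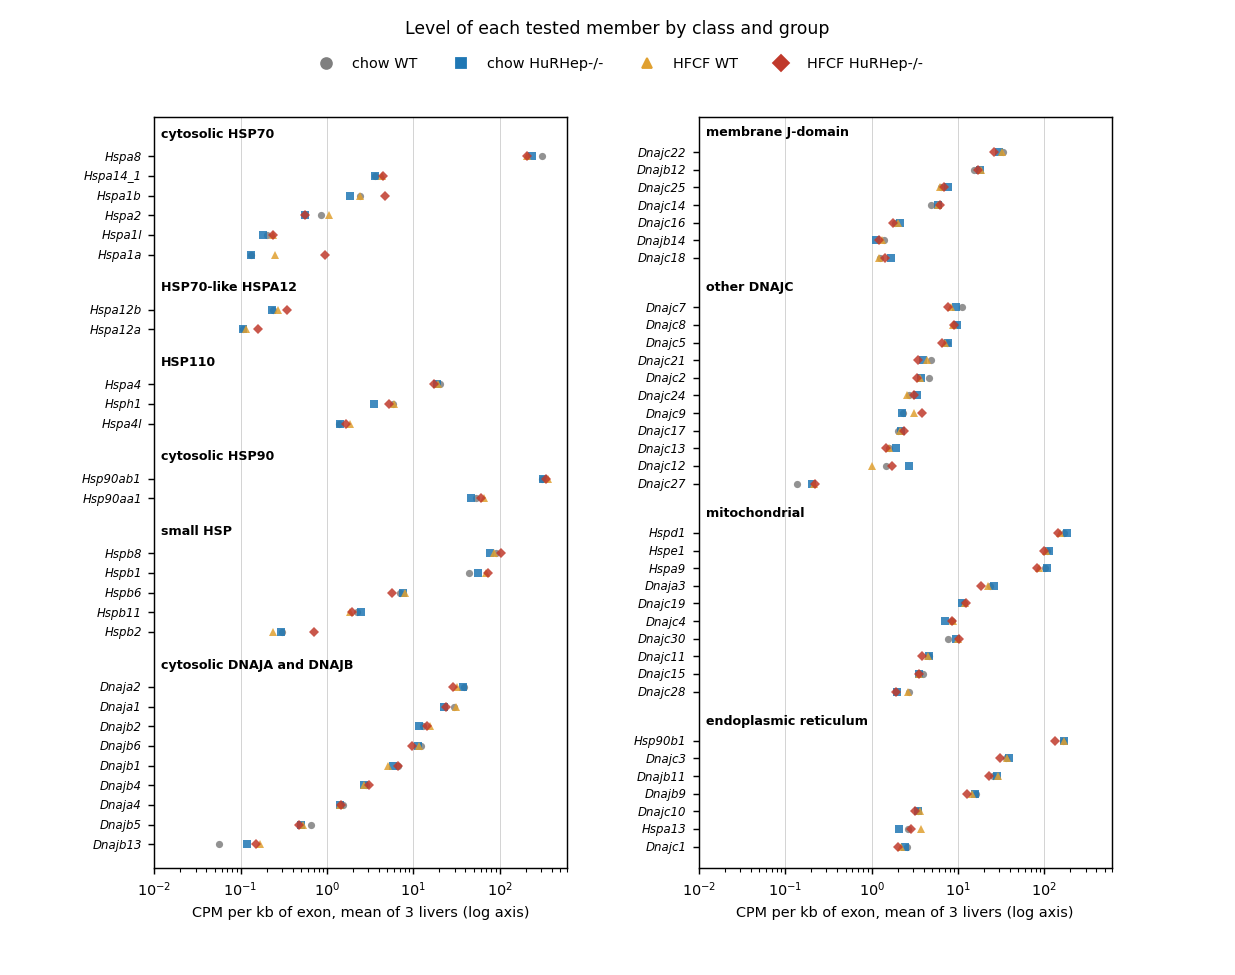
Mean level of the 62 members that passed the filter, in CPM per kb of exon on a log axis, by class, with 1 symbol per group (mean of 3 livers). *Hsp90ab1*, *Hspa8* and the organelle chaperones *Hspd1*, *Hsp90b1*, *Hspe1* and *Hspa9* lay farthest to the right, and the groups of 1 gene mostly lay close together.

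Counts can be uncertain where genes share sequence. Of the 31-base words of their transcripts, 65.4% of *Hspa1a* and 68.0% of *Hspa1b* recur elsewhere, mostly in each other, as do 62.9% of *Hsp90aa1*, 59.4% of *Hspa8*, 56.7% of *Hspb1* and 55.8% of *Hspd1*, mostly in 1 near-identical gene each. How the reads of such genes were divided is not given in the sources used here.

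Between 30071731 and 35949203 reads were counted on genes per library. *Elavl1*, the targeted gene, was checked first. Its normalised read counts (counts scaled to equal effective library size) were 1050, 996 and 1054 in chow WT livers, 1454, 1332 and 1319.6 in chow livers labelled HuRHep-/-, and 811, 821 and 917 against 1101, 1095 and 1164 in HFCF. The transcript was higher in the livers labelled HuRHep-/-, by 0.40 ± 0.048 on the log2 scale over both diets (SE, adjusted p = 0.000341). The groups did not overlap in either diet. A count over the whole gene does not separate the floxed part, so the genotype was not checked by it, and every direction below rests on the labels. Hepatocyte markers were abundant in all libraries. Skeletal and heart muscle markers, of interest because *Hspb2*, *Hspb6* and *Hspb7* are muscle genes, were near 0, with 2 of 6 (*Ckm*, *Myh4*) not in both tables and the rest summing to at most 17.6.

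The question of the genotype comparison was which members differ between livers labelled HuRHep-/- and WT. Over both diets, with 12 libraries in 1 fit, 14 of 62 members tested passed an adjusted p of 0.05 (limma with Benjamini-Hochberg adjustment over all genes tested). Of these, 4 were higher in the livers labelled HuRHep-/- and 10 lower. The higher ones were the J-domain genes *Dnajc12*, *Dnajc18*, *Dnajc24* and *Dnajc25*. The lower ones were *Hsph1* of the HSP110 class, the HSP70 partner *Dnaja1*, the HSP70 gene *Hspa2*, the ER member *Hspa13*, and *Dnajb14*, *Dnajc2*, *Dnajc7*, *Dnajc21*, *Dnajc22* and *Dnajc28*. As shares these are 6.45% higher and 16.1% lower, against 8.96% and 10.2% of all 14535 genes tested. The median log2 fold change was -0.026 over the members and 0.015 over all genes. With a fold change of at least 1.5 asked in addition, 1 member was higher (*Dnajc12*) and 1 lower (*Hspa2*), where 3.61% and 1.91% of all genes passed. Leaving out the second chow liver labelled HuRHep-/- lowered the count to 9.

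Within 1 diet fewer calls were made. In chow, *Dnajc12* alone passed of 60 members tested, where 2.3% of 13526 genes were higher and 1.92% lower. With the fold change of 1.5 these were 1.33% and 0.961%, and the 1 member was *Dnajc12*. In HFCF, 3 of 62 passed, *Dnajc12* higher, *Dnaja1* and the small heat shock protein gene *Hspb6* lower, against 2.9% of 14295 genes higher and 3.95% lower. With the fold change of 1.5 these were 2.27% and 1.48%, and the 1 member was *Dnajc12*. When the spread was estimated from all 12 libraries, 8 members passed in chow, 3 higher and 5 lower, where 3.28% of all genes were higher and 3.33% lower. In HFCF 13 then passed, 3 higher and 10 lower, where 4.87% of all genes were higher and 6.23% lower. *Hspb2*, 1 of the 3 higher, passed the filter on low counts only through the HFCF livers labelled HuRHep-/-. Without the first chow WT liver, or the first or second chow liver labelled HuRHep-/-, no member passed in chow, and without the third labelled HuRHep-/- 3 did, and without the second WT liver 2. In HFCF no member passed without the first WT liver or without any 1 of the 3 livers labelled HuRHep-/-. The 2 diets share no library. Of 60 members tested in each, 36 had estimates of the same sign, 13 above and 23 below 0.

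**Figure D2:**
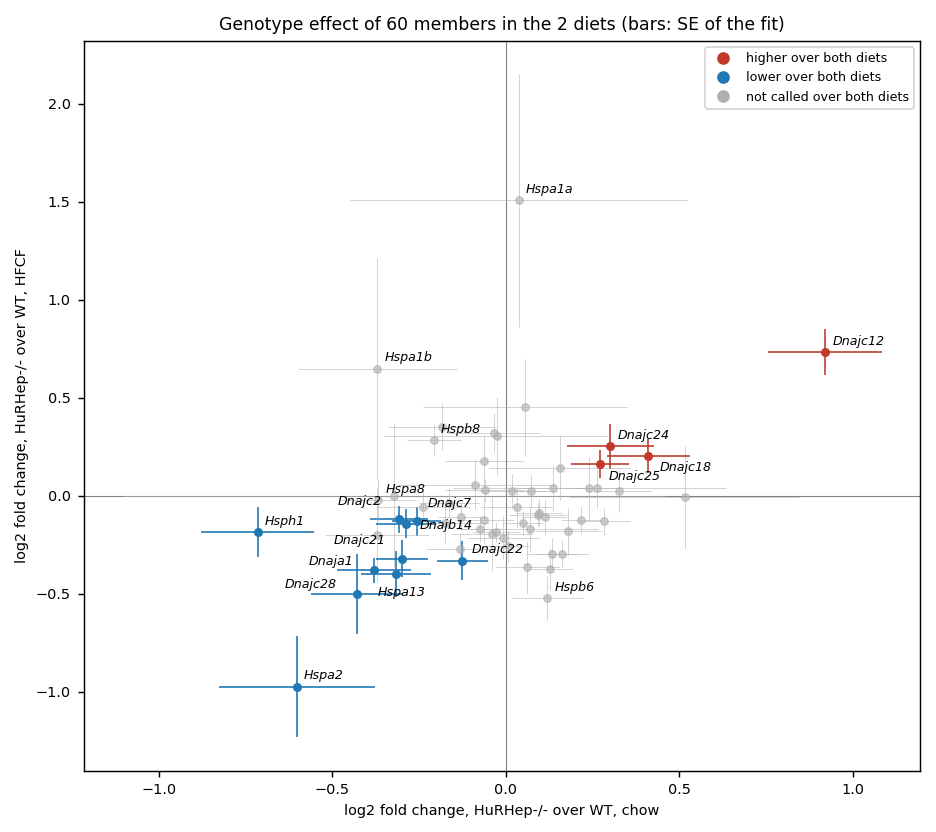
Log2 fold change of livers labelled HuRHep-/- over WT in chow (x axis) and in HFCF (y axis) for 60 members, with bars for the SE of each fit. Red members were called higher and blue ones lower over both diets. *Dnajc12* lies apart at the upper right (0.92 in chow and 0.73 in HFCF) and *Hspa2* at the lower left.

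*Dnajc12* had the largest fold change over both diets among the members called. It encodes the cochaperone of the aromatic amino acid hydroxylases, phenylalanine hydroxylase of the liver included, and lies on chromosome 10, 63382443 to 63410576 on the plus strand (GRCm38). Its normalised read counts were 226, 172 and 275 in chow WT livers and 425, 432 and 391 in chow livers labelled HuRHep-/-. In HFCF they were 167, 145 and 153 in WT livers and 292, 249 and 245 in livers labelled HuRHep-/-. In each diet every liver labelled HuRHep-/- lay above every WT liver. The log2 fold change was 0.92 ± 0.16 (SE, adjusted p = 0.028) in chow and 0.73 ± 0.12 (SE, adjusted p = 0.0235) in HFCF, which is 1.89-fold and 1.66-fold. Over both diets it was 0.83 ± 0.11 (SE, adjusted p = 0.000505), with every leave-one-out fit past the threshold. In single diets the adjusted p reached 0.13 (chow, without the second liver labelled HuRHep-/-) and 0.109 (HFCF, without the first liver labelled HuRHep-/-). It did not pass either without the first WT or the first labelled HuRHep-/- liver in chow, or without the first WT or the other livers labelled HuRHep-/- in HFCF.

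The other J-domain genes that were higher moved less. *Dnajc18*, a membrane J-domain gene, had 241, 205 and 259 normalised read counts in chow WT livers and 336, 297 and 297 in chow livers labelled HuRHep-/-, and 223, 227 and 229 against 254, 262 and 274 in HFCF. The groups of a diet did not overlap, and over both diets the log2 fold change was 0.31 ± 0.071 (SE, adjusted p = 0.0115). *Dnajc25*, another membrane J-domain gene, rose by 0.22 ± 0.056 (SE, adjusted p = 0.0184) on the log2 scale, from 995 ± 94.8 to 1192 ± 48.6 in chow and from 946 ± 64.5 to 1069 ± 34.7 in HFCF (mean ± SD, n = 3). *Dnajc25* shares 7.7% of its exons with the listed read-through gene *Gm20503* on the same strand. *Dnajc24*, of diphthamide synthesis on elongation factor 2, rose by 0.28 ± 0.076 (SE, adjusted p = 0.0242) on the log2 scale, and all 3 livers labelled HuRHep-/- lay above all 3 WT livers in each diet. Its adjusted p was at or above 0.05 in 5 of 12 leave-one-out fits (highest 0.0644, without the third HFCF liver labelled HuRHep-/-). *Dnajc25* lost its call without the first HFCF liver labelled HuRHep-/- (adjusted p = 0.0507).

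Of the J-domain genes that were lower, *Dnajc21*, a factor of ribosome assembly, had 800.4, 744 and 849 normalised read counts in chow WT livers and 633, 657 and 645 in chow livers labelled HuRHep-/-, and 724, 761 and 622 against 549, 565 and 584 in HFCF. It fell without overlap in both diets, with a log2 fold change of -0.31 ± 0.058 (SE, adjusted p = 0.0048) over both. *Dnajc2*, a J-domain protein bound to ribosomes, had 832, 754 and 803 in chow WT livers and 589, 649 and 685 in chow livers labelled HuRHep-/-, and in HFCF 611, 618 and 612 in WT livers and 593, 542 and 577 in livers labelled HuRHep-/-. The log2 fold change over both diets was -0.21 ± 0.052 (SE, adjusted p = 0.0164). *Hspa14*, its HSP70 partner, listed as Hspa14_1, had a log2 fold change of 0.026 ± 0.065 and did not pass (adjusted p = 0.812). *Dnajc7*, which binds HSP70 and HSP90 through repeats, had a log2 fold change of -0.19 ± 0.051 (SE, adjusted p = 0.0241), a call lost in 5 of 12 leave-one-out fits (adjusted p of up to 0.0624, without the second chow liver labelled HuRHep-/-). *Dnajb14*, an ER membrane J-domain protein that works with cytosolic HSP70 in the disposal of misfolded proteins, had one of -0.21 ± 0.056 (SE, adjusted p = 0.0235), a call lost in 3 of 12 (up to 0.0571, without the first chow WT liver). Its close relative *Dnajb12* was at 0.051 ± 0.043 (SE, adjusted p = 0.425) and did not pass.

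Of the lower genes left, *Dnajc22* had a log2 fold change of -0.22 ± 0.064 (SE, adjusted p = 0.0303) and *Dnajc28* of -0.46 ± 0.13 (SE, adjusted p = 0.0266). Both lost their call in 6 of 12 leave-one-out fits, with adjusted p of up to 0.0745 for *Dnajc22* (without the second chow liver labelled HuRHep-/-) and 0.0558 for *Dnajc28* (without the first HFCF liver labelled HuRHep-/-). *Hspa2*, an HSP70 best known from the testis, was low in liver, with 71.6, 71.7 and 83.4 normalised read counts in chow WT livers and 36.5, 55.8 and 58.6 in chow livers labelled HuRHep-/-. In HFCF it had 93.4, 87.2 and 105 in WT livers and 43.2, 37.0 and 71.4 in livers labelled HuRHep-/-. Every liver labelled HuRHep-/- lay below every WT liver of its diet, with a log2 fold change of -0.78 ± 0.18 (SE, adjusted p = 0.0109), and it passed in 12 of 12 leave-one-out fits. *Hspb6*, a small heat shock protein known from muscle, had 535, 496 and 628 in chow WT livers, 637, 583 and 567 in chow livers labelled HuRHep-/-, 714, 587 and 577 in HFCF WT livers and 426, 477 and 416 in HFCF livers labelled HuRHep-/-. The log2 fold change in HFCF was -0.52 ± 0.11 (SE, adjusted p = 0.0414). That call held in 1 of 6 leave-one-out fits, the one without the third WT liver, with adjusted p of up to 0.152 without the first liver labelled HuRHep-/-, and with upper-quartile scaling the adjusted p was 0.0565.

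**Figure D3:**
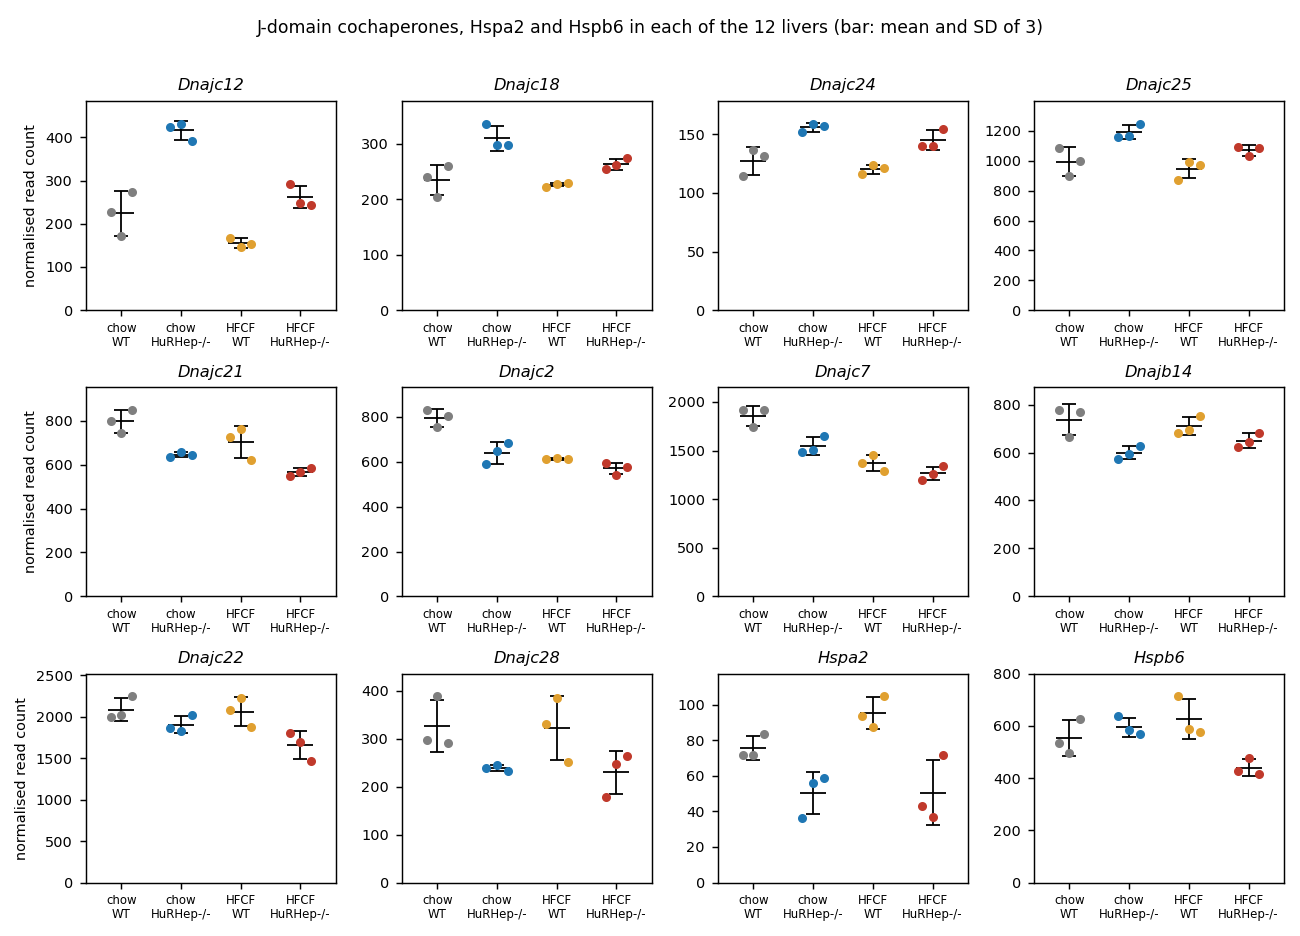
Normalised read counts of 10 J-domain cochaperones, *Hspa2* and *Hspb6* in each of the 12 livers (points), with the mean and SD of 3 per group, on axes that start at 0. *Dnajc12* was higher in the livers labelled HuRHep-/- in both diets without overlap, and *Dnajc21* and *Hspa2* lower.

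In the cytosolic set named by role, which holds inducible and constitutive genes, 2 of 12 passed over both diets, *Hsph1* and *Dnaja1*, both lower, where 10.2% of all genes were lower. *Dnaja1* encodes a farnesylated partner of HSP70. It had 8437, 8197 and 9150.2 normalised read counts in chow WT livers and 5797, 6318 and 7728 in chow livers labelled HuRHep-/-, and in HFCF 8626, 9530.0 and 8970.2 in WT livers and 6730.5, 7176 and 7141 in livers labelled HuRHep-/-. The groups did not overlap in either diet. The log2 fold change was -0.38 ± 0.065 (SE, adjusted p = 0.0267) in HFCF, -0.38 ± 0.11 (SE, adjusted p = 0.0882) in chow, and -0.38 ± 0.067 (SE, adjusted p = 0.00331) over both. In HFCF the call was lost without the first WT liver or any 1 liver labelled HuRHep-/- (adjusted p of up to 0.118).

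*Hsph1* encodes HSP110, which releases clients from HSP70. Its normalised read counts were 1368, 1618 and 1274 in chow WT livers and 680.3, 873 and 1059 in chow livers labelled HuRHep-/-. In HFCF they were 1475, 1741 and 1223 in WT livers and 1268, 1376 and 1259.5 in livers labelled HuRHep-/-. The chow groups stood apart and the HFCF groups overlapped. The log2 fold change was -0.72 ± 0.16 (SE, adjusted p = 0.0525) in chow, -0.19 ± 0.13 (SE, adjusted p = 0.359) in HFCF and -0.45 ± 0.11 (SE, adjusted p = 0.0182) over both diets. The chow difference passed when the spread was taken from all 12 libraries, -0.72 (adjusted p = 0.0224). The difference between the diets was 0.55 ± 0.23 (SE, adjusted p = 0.3) on the log2 scale and did not pass. Its paralogs *Hspa4* and *Hspa4l* had log2 fold changes of -0.12 ± 0.045 and -0.046 ± 0.12 over both diets and did not pass.

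*Hspa8* had 41280.1, 48968 and 45056 normalised read counts in chow WT livers, 30681, 36147 and 37740 in chow livers labelled HuRHep-/-, 31369.7, 31089 and 29430.5 in HFCF WT livers and 27075, 29948 and 34886 in HFCF livers labelled HuRHep-/-. The chow WT livers were the highest. The genotype difference was -0.37 ± 0.11 (SE, adjusted p = 0.0995) in chow and -0.023 ± 0.11 (SE, adjusted p = 0.906) in HFCF, and neither passed. *Dnajb1*, the classical HSP40, had 750.0, 685 and 714 in chow WT livers and 491, 642 and 782 in chow livers labelled HuRHep-/-. In HFCF it had 508, 569 and 581 in WT livers and 599, 762 and 791 in livers labelled HuRHep-/-. Its values overlapped between genotypes in chow and stood apart, higher in the livers labelled HuRHep-/-, in HFCF, with log2 fold changes of -0.18 ± 0.15 (SE, adjusted p = 0.51) and 0.35 ± 0.12 (SE, adjusted p = 0.111) that did not pass. The HSP90 genes *Hsp90aa1* and *Hsp90ab1* did not pass in any genotype comparison, with log2 fold changes of -0.15 ± 0.088 and -0.0094 ± 0.074 over both diets.

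Among the chow livers labelled HuRHep-/-, 6 of the 12 cytosolic genes were lowest in the first liver and 4 highest there, while 7 were highest in the third and 3 lowest. *Hspa8*, *Hspa1a*, *Hsph1*, *Dnaja1* and *Dnajb1* were lowest in the first and highest in the third. *Hspb1*, *Hspa4l* and *Hsp90ab1* were highest in the first and lowest in the third, with 3174, 1746 and 1009.9 for *Hspb1*, 694, 558 and 457 for *Hspa4l* and 34189, 31756 and 30709.6 for *Hsp90ab1*. In other groups, too, single livers were often lowest or highest: the first chow WT liver was lowest for 8 of the 12 genes, the second highest for 7, and the first HFCF liver labelled HuRHep-/- lowest for 7. *Cirbp*, a gene induced by cold and lowered by heat, had 1148, 863 and 632 in these livers and 677, 495 and 545 in the chow WT livers, and with a log2 fold change of 0.60 ± 0.21 (SE, adjusted p = 0.146) it did not pass. The list of sampling-time and temperature genes had 0 of 14 genes called in chow (3 at an unadjusted p under 0.05 by limma), 1 in HFCF and 1 of 15 over both diets, *Cry1* in either case, lower in the livers labelled HuRHep-/-, where 3.95% of all genes were lower in HFCF and 10.2% over both diets. It summed to 25345 to 26150.3 normalised read counts in chow WT livers, 20496 to 27672 in chow livers labelled HuRHep-/-, 18783 to 23743 in HFCF WT livers and 21309.8 to 22521 in HFCF livers labelled HuRHep-/-. Genes that move in opposite directions can cancel in such a sum, and genes of few reads hardly count in it. The first chow liver labelled HuRHep-/- stood apart from the other two in several clock genes, with 646, 1476 and 1456 for *Per1*, 195, 562 and 1220.2 for *Ciart*, 86.8, 20.0 and 15.7 for *Arntl* and 3929, 6837 and 7228 for *Dbp*. In the chow WT livers *Per1* had 1183, 1141 and 1279.5 and *Ciart* 808, 757 and 963. The first HFCF liver labelled HuRHep-/- was also lowest of its group in *Per1*, with 361, 1374 and 1496. The first HFCF WT liver was lowest too, with 683, 1278 and 1182 for *Per1* and 308, 769 and 609 for *Ciart*. *Nr1d1* fell from the first to the third liver in every group. It had 3392, 2965 and 1957 in chow WT and 3779, 3636 and 2492 in chow HuRHep-/-. In HFCF it had 2303, 1953 and 1016 in WT and 2957, 2646 and 2043 in HuRHep-/-. *Arntl* was highest in the first liver of every group. Of 11 immediate early genes *Dusp1* was lower in HFCF, as were 3.95% of all genes, and *Junb* higher over both diets, as were 8.96%. With diet 2 of the 11 were higher in WT, where 11.3% of all genes were, and 3 in livers labelled HuRHep-/-, where 19.7% were. The part of sampling time or body temperature in the values of these chaperones was not tested.

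The inducible HSP70 genes varied widely among livers of 1 group. *Hspa1b* had 162, 289 and 238 in chow WT livers, 147, 209.5 and 165 in chow livers labelled HuRHep-/-, 227, 162 and 291 in HFCF WT livers and 153, 333 and 839 in HFCF livers labelled HuRHep-/-. *Hspa1a* had 8.96, 9.10 and 22.2 in chow WT livers, 7.89, 14.7 and 16.7 in chow livers labelled HuRHep-/-, 22.4, 20.8 and 31.3 in HFCF WT livers and 26.3, 71.4 and 191 in HFCF livers labelled HuRHep-/-. Both were highest in the third HFCF liver labelled HuRHep-/- and next highest in the second. The coefficient of variation within groups averaged 38.8% for *Hspa1b* and 29.7% for *Hspb1*, against a median of 7.39% over the 53 members with a mean of at least 100 normalised read counts. Among members of fewer reads it was 50.8% for *Hspa1a*, 48.6% for *Hspa1l* and 35.3% for *Dnajb13*. No genotype comparison passed for *Hspa1a*, *Hspa1b* or *Hspb1*. In HFCF the log2 fold change was 1.51 ± 0.65 (SE, adjusted p = 0.171) for *Hspa1a* and 0.65 ± 0.56 (SE, adjusted p = 0.473) for *Hspa1b*.

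*Hspb8*, a small heat shock protein that works with the cochaperone BAG3 to send misfolded proteins to autophagy, had 5793, 6012 and 6098 in chow WT livers and 5150.2, 4664 and 5664 in chow livers labelled HuRHep-/-. In HFCF it had 5258, 6179.6 and 5412 in WT livers and 7210.4, 6759 and 6706 in livers labelled HuRHep-/-. The livers labelled HuRHep-/- stood below WT in chow and above WT in HFCF, without overlap. In the fit of its own diet the log2 fold change was -0.21 ± 0.078 (SE, adjusted p = 0.167) in chow and 0.28 ± 0.078 (SE, adjusted p = 0.0716) in HFCF, and neither passed. The HFCF one passed with the spread of all 12 libraries, 0.30 (adjusted p = 0.0367). *Bag3* had 805, 1061 and 815 in chow WT livers, 783, 868 and 974 in chow livers labelled HuRHep-/-, 915, 998 and 1015 in HFCF WT livers and 1169, 1252 and 1165 in HFCF livers labelled HuRHep-/-. The last group stood above the other HFCF livers, with a log2 fold change of 0.28 ± 0.069 (SE, adjusted p = 0.0569), which did not pass.

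**Figure D4:**
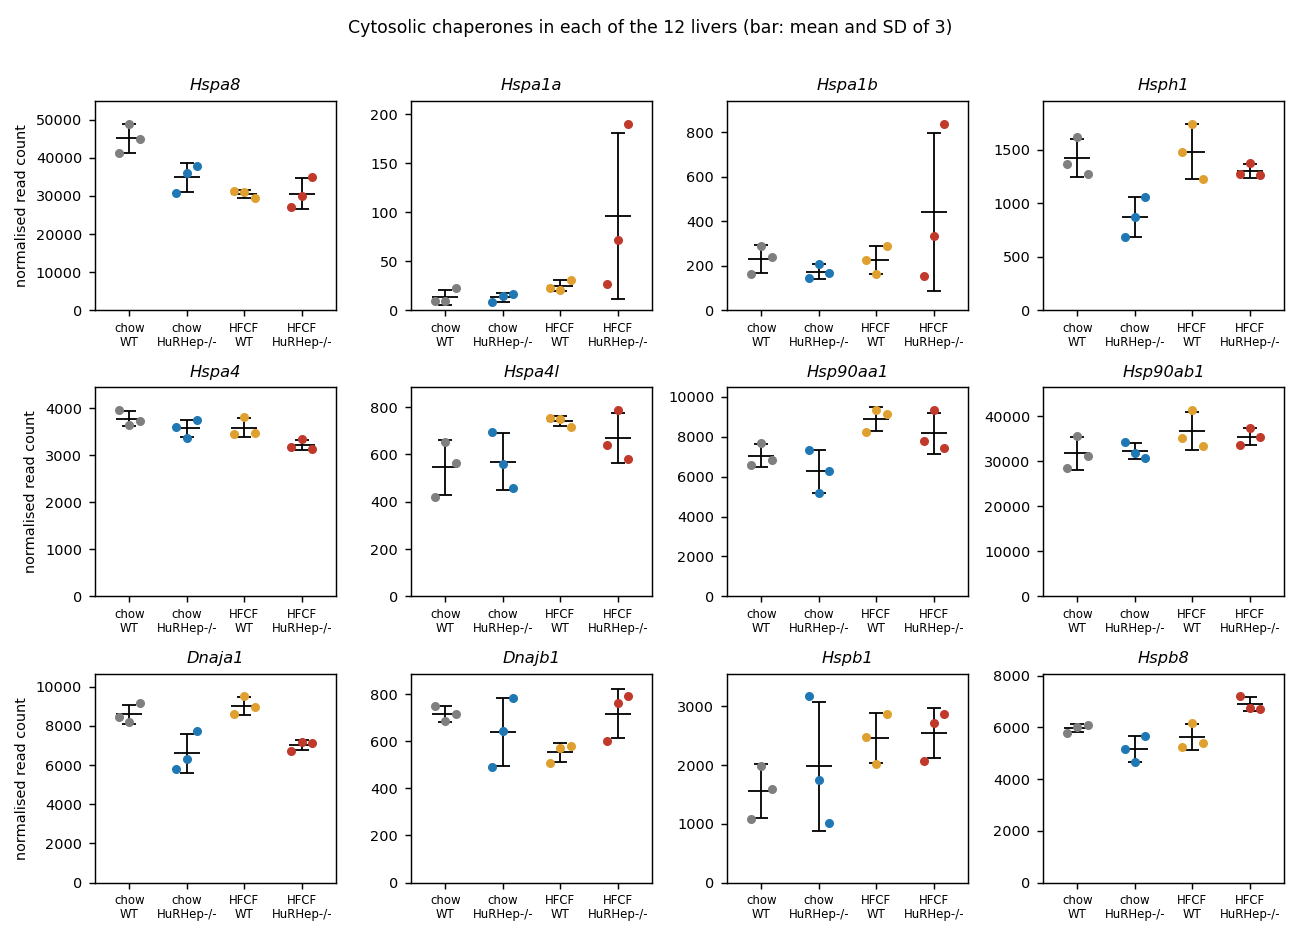
Normalised read counts of the 12 cytosolic chaperones named by role in each of the 12 livers (points), with the mean and SD of 3 per group, on axes that start at 0. *Dnaja1* was lower in the livers labelled HuRHep-/- in both diets, *Hspb8* was highest in the HFCF livers labelled HuRHep-/-, and *Hspa1a* and *Hspa1b* were spread widely there.

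In the organelles, 1 of 7 ER genes and 1 of 10 mitochondrial genes (*Dnajc28*) passed over both diets, both lower, where 10.2% of all genes were lower. The ER gene was *Hspa13*, an HSP70-like protein of microsomes, with 687, 541 and 590.3 normalised read counts in chow WT livers and 478, 504 and 466 in chow livers labelled HuRHep-/-, and in HFCF 923, 784 and 863 in WT livers and 711, 704 and 562 in livers labelled HuRHep-/-. It was lower in the livers labelled HuRHep-/- without overlap in both diets, with a log2 fold change of -0.35 ± 0.079 (SE, adjusted p = 0.0106). Among the ER chaperones and cochaperones that the unfolded protein response also controls, *Dnajb9* had a log2 fold change of -0.11 ± 0.12 over both diets. *Dnajb11* had -0.12 ± 0.065, *Dnajc3* -0.077 ± 0.056 and *Hsp90b1* -0.15 ± 0.086, and none of these 4 passed. In HFCF 7 of 7 ER genes and 40 of all 62 members had estimates below 0, and in chow 4 of 7 ER genes did, and none of the ER genes passed in the fit of either diet. With the spread of all 12 libraries, *Hspa13*, *Dnajb11* and *Dnajc3* passed in HFCF, at log2 fold changes of -0.38 (adjusted p = 0.0481), -0.36 (adjusted p = 0.0307) and -0.28 (adjusted p = 0.0438).

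Whether the genotype difference changed with diet was tested as an interaction over 12 libraries. No member passed by limma, of 62 tested, and 0% of all 14535 genes were higher and 0% lower. At an unadjusted p under 0.05 there were 15 members and 2084 genes, and with voom weights no member passed either. The smallest p among the members was that of *Hspb8*, with a difference of 0.51 ± 0.11 on the log2 scale (unadjusted p = 0.000786, adjusted p = 0.127). *Dnajc13*, *Hspb6* and *Dnaja3* were next, with -0.39 ± 0.10, -0.62 ± 0.16 and -0.44 ± 0.11 and adjusted p from 0.152 to 0.153. Interaction estimates were below 0 for 37 of 62 members, among them 7 of 7 ER, 6 of 7 membrane J-domain and 7 of 10 mitochondrial genes, and above 0 for 5 of 6 cytosolic HSP70 and 6 of 9 cytosolic DNAJA and DNAJB genes. The median was -0.065 over the members and 0.0048 over all genes.

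HFCF livers were set against chow livers within each label. Each diet has its own count table, and the labels give a feeding period for HFCF alone, so that diet, table and period cannot be told apart. The WT and the HuRHep-/- comparison share no library. In WT livers 13 of 62 members passed, 8 higher and 5 lower in HFCF, or 12.9% and 8.06%, against 11.3% and 12.8% of all genes. With the fold change of 1.5, *Dnajb13* alone passed, where 6.68% and 3.28% of all genes did. Its deposited read counts were 3, 7 and 4 in chow WT livers and 25, 12 and 11 in HFCF WT livers. Chow libraries by themselves left *Dnajb13* too low to be tested, so it entered this comparison only through the HFCF libraries. Without the first chow WT liver 6 members passed, without the third 7, and without the third HFCF WT liver 8. In livers labelled HuRHep-/-, 24 of 62 passed, 9 higher and 15 lower, or 14.5% and 24.2%, against 19.7% and 19.1% of all genes. With the fold change of 1.5 there were 4 higher and 1 lower, where 14.7% and 4.96% of all genes passed. *Hspb2*, 1 of the 4 higher, passed the filter on low counts only through the HFCF livers labelled HuRHep-/-. The medians over members were -0.02 in WT and -0.072 in livers labelled HuRHep-/-, and over all genes 0.011 and 0.0027.

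Markers of other cells moved with the labels and the diet. The 7 Kupffer cell and macrophage markers had 4 called higher over both diets in the livers labelled HuRHep-/-, where 8.96% of all genes were higher, and summed to 5437 to 7099 in chow WT, 7756 to 11038 in chow HuRHep-/-, 9089.7 to 15294 in HFCF WT and 14463 to 20574 normalised read counts in HFCF HuRHep-/-. Of 5 cholangiocyte markers 2 were higher in the HFCF livers labelled HuRHep-/-, against 2.9% of all genes, and there the list summed to 4506 to 8200.2 against 1311 to 2969 in WT. In the diet comparison of livers labelled HuRHep-/-, 6 of 6 stellate cell, 5 of 5 cholangiocyte, 5 of 7 macrophage and 3 of 5 lymphocyte markers were higher, and 4 of 6 hepatocyte markers lower. In WT livers 2 of 6 stellate cell and 3 of 7 macrophage markers were higher and 3 of 6 hepatocyte markers lower. The shares of all genes with diet are those given above. Between the labels 1 of 6 hepatocyte markers, *Apob*, was lower in HFCF and over both diets. The hepatocyte list summed to 3208570 to 3950170 in chow WT, 2559050 to 2824480 in chow HuRHep-/-, 2236630 to 2555770 in HFCF WT and 2040980 to 2166730 in HFCF HuRHep-/-. The stellate list summed to 5308 to 6056, 4446 to 6307, 5715 to 11385 and 10348 to 12308 in that order. No endothelial, red cell or tested neutrophil marker was called between the labels. The part of cell makeup in the chaperone values was not tested.

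Of the 10 mitochondrial members, 5 were lower in HFCF than in chow in the livers labelled HuRHep-/-, and 1 higher in WT livers, where 19.1% of all genes were lower in the former and 11.3% higher in the latter. *Dnaja3*, the J-domain partner of mitochondrial HSP70, had 3578, 3401 and 3566 in chow and 2274, 2551 and 2522 in HFCF livers labelled HuRHep-/-, a log2 fold change of -0.52 ± 0.077 (SE, adjusted p = 0.000635). In WT livers it had 3513, 2876 and 3106 and 2842, 3121 and 2949.7, and with -0.087 ± 0.077 (SE, adjusted p = 0.438) it did not pass. *Hspa9* had 15333, 14661 and 17426 and 11984, 12481 and 11926 in the livers labelled HuRHep-/-, with a log2 fold change of -0.38 ± 0.073 (SE, adjusted p = 0.00246). In the same livers the log2 fold change was -0.36 ± 0.08 (SE, adjusted p = 0.00531) for *Hspd1* and -0.20 ± 0.069 (SE, adjusted p = 0.0379) for *Hspe1*, the pair with the shared promoter stretch printed above. In WT livers the log2 fold changes of *Hspa9*, *Hspd1* and *Hspe1* were -0.21 ± 0.073 (SE, adjusted p = 0.0579), -0.16 ± 0.08 (SE, adjusted p = 0.174) and -0.04 ± 0.069 (SE, adjusted p = 0.706), and none passed. *Dnajc11*, of the mitochondrial outer membrane, had a log2 fold change of -0.29 ± 0.07 (SE, adjusted p = 0.00755) in the livers labelled HuRHep-/-. The call of *Hspe1* was lost with upper-quartile scaling (adjusted p = 0.14), with a filter of 10 reads in every library (0.0712) and without the first or the third chow or the first or second HFCF liver labelled HuRHep-/- (up to 0.123). In WT livers *Dnajc30* rose by 0.42 ± 0.10 (SE, adjusted p = 0.0129) on the log2 scale. *Dnajc15* and *Dnajc19*, J-domain proteins of the import motor, did not pass in any comparison.

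Of the 7 ER members, *Hspa13* rose in HFCF under both labels, by 0.50 ± 0.11 (SE, adjusted p = 0.00862) in WT and 0.44 ± 0.11 (SE, adjusted p = 0.00982) in livers labelled HuRHep-/- on the log2 scale. *Hsp90b1*, *Dnajc3* and *Dnajb11*, the first and second with an ER stress element in the promoters printed above, fell in the livers labelled HuRHep-/-. *Dnajc3*, which holds back the kinase PERK, had 6529, 6962 and 6872 in chow and 5289, 5766 and 5053 in HFCF, without overlap, a log2 fold change of -0.34 ± 0.079 (SE, adjusted p = 0.00658). *Hsp90b1* had 21108, 25407 and 23409 and 16496, 21370.5 and 16910.5, which overlapped, a log2 fold change of -0.36 ± 0.12 (SE, adjusted p = 0.0364). *Dnajb11*, a partner of BiP, had a log2 fold change of -0.30 ± 0.092 (SE, adjusted p = 0.0245). In WT livers the log2 fold changes of *Hsp90b1*, *Dnajc3* and *Dnajb11* were 0.048 ± 0.12, 0.066 ± 0.079 and 0.18 ± 0.092 and did not pass. With upper-quartile scaling *Hsp90b1* and *Dnajb11* missed the threshold (adjusted p = 0.0734 and 0.0564), as they did without the second or the third chow or the first or the third HFCF liver labelled HuRHep-/- (up to 0.135 and 0.0932). *Dnajb9*, *Dnajc1* and *Dnajc10* did not pass under either label.

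Among the cytosolic genes, *Hspa8* was lower in HFCF in WT livers, with a log2 fold change of -0.56 ± 0.11 (SE, adjusted p = 0.00511), and stood at -0.19 ± 0.11 (SE, adjusted p = 0.198) in livers labelled HuRHep-/-. *Hsph1* and *Hsp90aa1* were higher in HFCF in the livers labelled HuRHep-/-, by 0.60 ± 0.16 (SE, adjusted p = 0.0122) and 0.39 ± 0.12 (SE, adjusted p = 0.0274) on the log2 scale, and in WT at 0.052 ± 0.16 and 0.34 ± 0.12, where neither passed. *Hspb8* rose by 0.42 ± 0.081 (SE, adjusted p = 0.00236) on the log2 scale in the livers labelled HuRHep-/- and stood at -0.091 ± 0.081 (SE, adjusted p = 0.44) in WT. The 11 immediate early genes had a median log2 fold change of 0.99 with diet in the livers labelled HuRHep-/-, and their part in the values of these genes was not tested. *Hspa1a* rose by 2.46 ± 0.61 (SE, adjusted p = 0.00872) on the log2 scale in the livers labelled HuRHep-/-, from 7.89, 14.7 and 16.7 to 26.3, 71.4 and 191. Without the third HFCF liver the log2 change of *Hspa1a* was 1.75. The call of *Hsp90aa1* was lost without the second or the third chow or the second HFCF liver labelled HuRHep-/- (adjusted p of up to 0.112). *Hsp90ab1*, *Hspa1b*, *Hspb1*, *Dnajb1*, *Hspa4*, *Hspa4l* and *Dnaja1* did not pass under either label.

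J-domain genes moved in both directions with diet. *Dnajc12* fell under both labels, with log2 fold changes of -0.50 ± 0.15 (SE, adjusted p = 0.0303) in WT and -0.67 ± 0.15 (SE, adjusted p = 0.00516) in livers labelled HuRHep-/-. *Dnajc7* fell as well, with log2 fold changes of -0.44 ± 0.072 (SE, adjusted p = 0.00212) in WT and -0.29 ± 0.072 (SE, adjusted p = 0.0087) in livers labelled HuRHep-/-. *Dnaja2*, another HSP70 partner, had -0.24 ± 0.061 (SE, adjusted p = 0.0145) and -0.38 ± 0.061 (SE, adjusted p = 0.000924). *Dnajc9*, a J-domain protein that chaperones histones, rose by 0.40 ± 0.11 (SE, adjusted p = 0.0254) and 0.78 ± 0.11 (SE, adjusted p = 0.000572) on the log2 scale, from 188 ± 14.7 to 248 ± 14.8 and from 184 ± 23.1 to 314 ± 21.8 normalised read counts (mean ± SD, n = 3). *Dnajb2* and *Hspa14* also rose under both labels. *Dnajc2* fell and *Dnajb12* and *Dnajc14* rose in WT, with log2 fold changes of -0.37, 0.25 and 0.27. In the livers labelled HuRHep-/-, 4 more fell, *Dnajc13* of endosomes with a log2 fold change of -0.40 ± 0.068 (SE, adjusted p = 0.00124), *Dnajc5* of secretory vesicles with -0.24, *Hspb6* with -0.44 and *Hspb11*, a cilium transport subunit, with -0.36. *Dnajb13*, of the axoneme of cilia, rose from few reads in WT, with 3.36, 7.96 and 4.45 normalised read counts in chow and 22.4, 12.5 and 11.9 in HFCF. In a fit of the chow libraries alone it fell under the filter on low counts. *Hspb2* rose from few reads in livers labelled HuRHep-/-, with 6.90, 9.48 and 8.37 in chow and 15.3, 17.6 and 26.6 in HFCF. It passed the filter on low counts only through these HFCF livers, where it was high. *Dnajb13* kept its call in 2 of 6 leave-one-out fits (adjusted p of up to 0.125, without the first HFCF liver) and *Hspb2* in 0 of 6 (up to 0.152, without the third HFCF liver). *Hspb11* lost its call without the first HFCF liver labelled HuRHep-/- (0.0586).

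**Figure D5:**
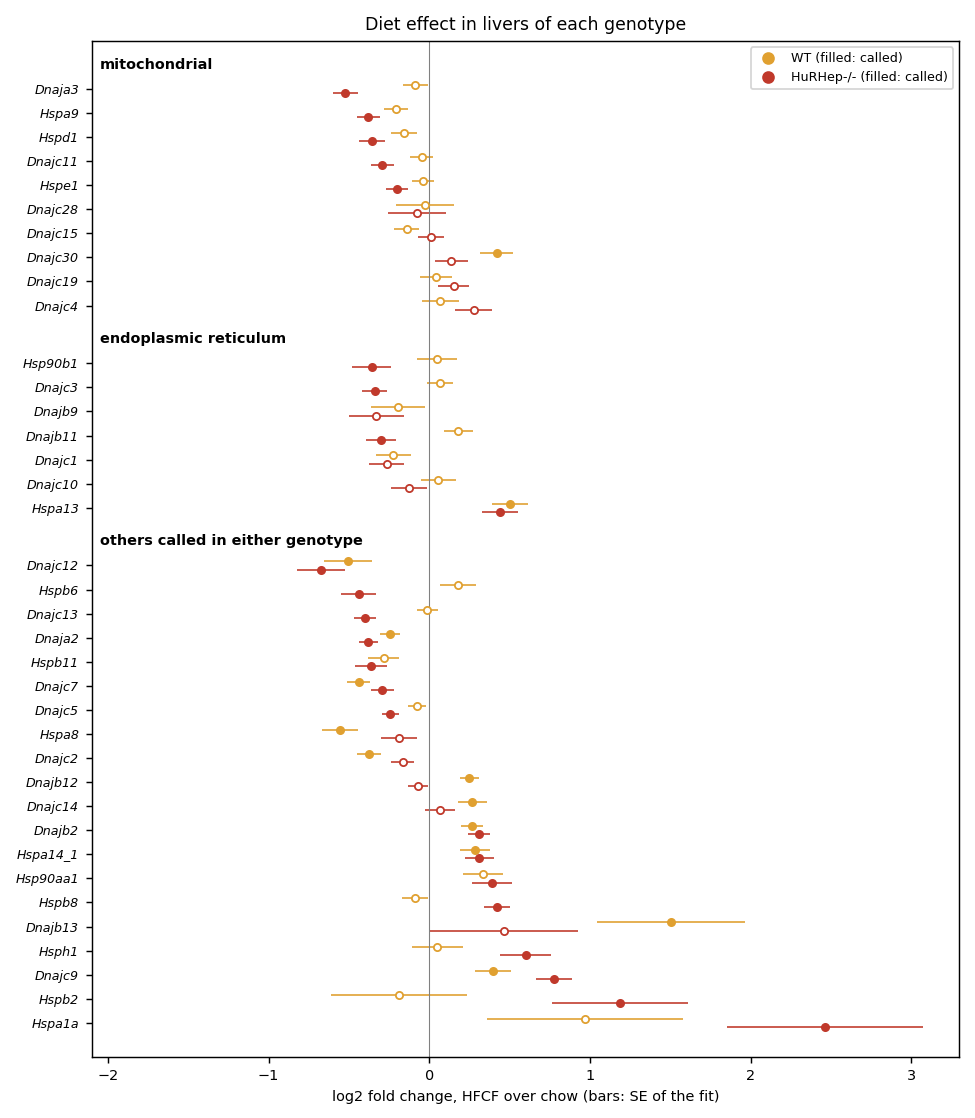
Log2 fold change of HFCF over chow in WT livers (orange) and in livers labelled HuRHep-/- (red) for the mitochondrial and ER members and the other members called under either label, with bars for the SE of the fit and filled points for calls. *Dnaja3*, *Hspa9*, *Hspd1*, *Dnajc11*, *Hspe1*, *Hsp90b1*, *Dnajc3* and *Dnajb11* were called lower in the livers labelled HuRHep-/-, and *Hspa13* was called higher under both labels.

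In WT livers the calls of *Dnajc12*, *Dnajc14* and *Hspa14* were lost in 4 of 6 leave-one-out fits each (adjusted p of up to 0.113, 0.161 and 0.154, the first and last without the third chow liver and the other without the first). *Dnaja2* lost its call without the first or the third chow or the first HFCF liver, *Dnajc9* without the third of either diet, and *Dnajc30* and *Dnajb2* without the first chow liver. In the livers labelled HuRHep-/-, *Hspa14* lost its call without the first chow, the first HFCF or the third HFCF liver.

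The pathway around these chaperones was read from a list of 47 genes of heat shock factors, their regulators, HSP70 and HSP90 cochaperones and the CCT chaperonin. In chow 2 of 47 passed, both lower and both of the ER, where 1.92% of all genes were lower. *Hyou1*, the HSP110 of the ER, changed by -0.51 ± 0.075 (SE, adjusted p = 0.0167) on the log2 scale, and *Hspa5* (BiP), the ER HSP70 that the member rule leaves out, by -0.58 ± 0.094 (SE, adjusted p = 0.0219). *Hspa5* had 20476, 17505 and 20478 normalised read counts in chow WT livers and 11821, 13043 and 14173 in chow livers labelled HuRHep-/-, without overlap. None of the 47 passed in HFCF by limma, where 15 had an unadjusted p under 0.05. Over both diets 6 were higher and 7 lower, where 8.96% of all genes were higher and 10.2% lower, with a list median of -0.036. Among those with the smallest adjusted p, given by log2 fold change, were *Hspa5* (-0.55), the HSP70 cochaperone *St13* (-0.20), *Ahsa2* (-0.24), *Hyou1* (-0.53) and *Hspbp1* (0.20), which releases nucleotide from HSP70. *Hsf1* and *Hsf2* did not pass in any genotype comparison. With diet, 2 rose and 10 fell in WT, where 11.3% and 12.8% of all genes did. In livers labelled HuRHep-/- 5 rose and 18 fell, where 19.7% and 19.1% of all genes did.

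Under the filter on low counts lay 6 members, *Dnajb8* among them. *Hspb7*, a small heat shock protein of muscle, had deposited read counts of 6, 4 and 4 in chow WT, 5, 1 and 7 in chow HuRHep-/-, 1, 1 and 6 in HFCF WT and 7, 5 and 7 in HFCF HuRHep-/-. *Dnajc6*, auxilin of neurons, had 1, 3 and 6 in chow WT, 1, 2 and 1 in chow HuRHep-/-, 8, 8 and 1 in HFCF WT and 6, 10 and 15 in HFCF HuRHep-/-. *Hspb9*, *Dnajb3* and *Dnajb7* had at most 7 reads in any library. None of these was tested, and whether they differ between groups is not known.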

How the data were processed

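Total RNA of 12 livers was sequenced with a stranded kit. By the study's methods, reads were mapped and counted per gene in CLC Genomics Workbench against GRCm38.p6 (mm10), and the authors deposited 1 table of counts per diet, with no normalisation. Large values are written with commas there (21506 and 23123 values). No column of sample values was left out. Counts were scaled with TMM (M trim 0.3, A trim 0.05), turned into log2 CPM with a pseudocount of 0.5, and tested with limma 3.58.1 (trend) in R 4.3.3 over all genes past a filter (3 or more libraries at or above the CPM that 10 counts give in a library of median size, with 15 counts or more summed). Benjamini-Hochberg adjusted p of at most 0.05 made a call, two-sided. This test was used in place of a count model, although the deposited values were whole numbers once the commas were taken out. Genotype within 1 diet was fitted on its 6 libraries, and the other comparisons on all 12. The method was tested on simulated counts with an assumed spread and changes of at least 1.5-fold, so smaller changes were not covered. Normalised read counts are counts over the effective library size, rescaled to the mean size. Depth was 30071731 to 35949203 counts per library, so that counting error is small except for members of few reads. The labels number the replicates without naming animals, and the study gives 3 mice per group for its untreated livers. Figures were drawn with matplotlib 3.10.9 in Python 3.11.15.

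Members were named by role, together with up to 6 called members per direction and comparison, those with the largest change at a mean of at least 100 normalised read counts, and up to 6 pathway genes called per genotype comparison, by adjusted p, of which 1 is not reported here. *Hspa2*, *Dnajb14*, *Dnajc2*, *Dnajc7*, *Dnajb12*, *Dnajb13*, *Dnajb2*, *Dnajc5*, *Dnajc11*, *Hspb2*, *Hspb11*, *Bag3*, *Cirbp*, *Cry1*, *Dusp1*, *Junb*, *Apob*, *Per1*, *Ciart*, *Arntl*, *Nr1d1*, *Dbp*, *Hspa1l* and *Dnajb6* fall outside that rule in at least 1 comparison and were named after their values were seen. The members and the lists were chosen with earlier results of these data known. Alternatives were another scaling, filter, pseudocount, weights, the replicate number as a block, 12 libraries in place of 6, a fold threshold of 1.5, and each library left out.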

Additional observations from a re-analysis of the deposited data

How the results depend on the processing

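Of 800 recomputed fold changes of called members, 698 stayed on their side of the threshold, 102 missed it and none changed direction. The losses were largest in fits that left out 1 liver. Without the first chow WT liver 11 of 28 values missed it, and without the first HFCF liver labelled HuRHep-/- 12 of 41. Without the second chow WT liver 1 of 28 did. The alternatives that kept all livers lost at most 4 of 55. With no filter on low counts the diet calls of *Hspa14* and *Dnajc14* in WT and of *Hspb2* in livers labelled HuRHep-/- were lost (adjusted p = 0.0586, 0.0714 and 0.0644, limma), and with voom weights those of *Dnajc14* and *Dnajc12* in WT (0.0544 and 0.0504). With upper-quartile scaling 2 members passed between genotypes in chow. With 12 libraries in the fit, 8 passed in chow and 13 in HFCF, of 961 and 1614 genes called. With a fold change of at least 1.5, 1 passed in HFCF, 2 over both diets, 1 with diet in WT and 5 with diet in livers labelled HuRHep-/-. Leaving out 1 library at a time gave 0 to 3 members in chow, 0 to 4 in HFCF, 9 to 16 over both diets, 6 to 16 with diet in WT and 20 to 24 with diet in livers labelled HuRHep-/-. The interaction had 0 members under every alternative run. The cause of these shifts was not tested, beyond the fewer or more libraries in a fit.

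With the replicate number as a block (replicate block), 0 members passed in chow (*Dnajc12* at an adjusted p of 0.0502 by limma), 8 in HFCF, 15 over both diets, 13 with diet in WT and 27 with diet in livers labelled HuRHep-/-, of 340, 1341, 2759, 3578 and 5713 genes called in that order. The diet call of *Dnajc14* in WT was lost as well (0.0508). The numbers were not taken as pairs: same-numbered livers correlated at -0.030, 0.11 and -0.0030 in chow and at 0.088, 0.19 and 0.086 in HFCF. In HFCF 6 of 6 livers correlated best with their own number, in chow 2 of 6, a hint from the data and not from the design. *Nr1d1* and *Arntl* were highest in the first liver of every group, and the fits without the block do not take such an order into account. Depth limits *Hspa1a*, *Hspb2*, *Dnajb13* and the members under the filter. Shared sequence limits *Hspa1a*, *Hspa1b*, *Hsp90aa1*, *Hspa8*, *Hspb1* and *Hspd1*.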
